A study of Mus musculus with 30 samples.

Results

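Transcripts of macrophages, monocytes, granulocytes and dendritic cells were measured in 30 tumors that had been depleted of CD45+ cells with magnetic beads, and that were grown in mice from 5 MCA-induced primary lines. These myeloid transcripts are those of 37 listed genes, matched by symbol among the 48440 genes of the table, and 35 of the 37 passed edgeR's filter on low counts, as did 16862 genes in all. MCA, methylcholanthrene, is a chemical carcinogen that induces fibrosarcomas, so that each line derives from a single primary tumor. The tumors of MCA-943 (4 tumors) are labelled Ncr1Cre, and those of MCA-969 (8), MCA-948 (8), MCA-970 (6) and MCA-972 (4) are labelled Ncr1Cre R26DTA. In the latter genotype, Cre driven by Ncr1, the gene of NKp46, switches on diphtheria toxin A in the cells that express it. All are on the C57BL/6 background and were grown in C57BL/6 mice, and it is not stated whether the genotype is that of the host or that of the mouse in which the line arose. The design text also says that wild-type and NK cell-deficient hosts were used, and the labels do not tie a tumor to either host. MCA-943 and MCA-969 are classed as non-sensitive to NK1.1+ cells and MCA-948, MCA-970 and MCA-972 as sensitive, from the survival of mice treated or not with an antibody against NK1.1. Of MCA-969, W-1D and W-2D carry the label sensitive, and were kept with their line. A letter (W or a) and an animal code in the titles are not explained, and the MCA-972 tumor 2G has no letter.

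Macrophages and monocytes depend on the growth factors CSF1 and IL-34, which signal through the receptor CSF1R, and monocytes leave the blood along gradients of CCL2 and CCL7, which are sensed by CCR2. Within tumors these cells take up debris through scavenger receptors, bind antibody through Fc receptors, secrete the C1q complement chains, present peptides on MHC class II, and metabolise arginine through arginase 1 or the inducible nitric oxide synthase. All these cells carry CD45, encoded by Ptprc, and are therefore a target of the beads.

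The libraries held 27745104 to 46537062 gene counts each (median 35039383). Levels are given in CPM, counts scaled to the library total after TMM normalization, in which a count of 3, the limit that a count of 0 allows, is worth 0.0602 to 0.113 CPM depending on the tumor. This limit covers counting error only. Ptprc was detected in every tumor, and it differed between tumors of one line. In MCA-943 it was at 25.1 CPM in W-2G and 18.7 in a-1D against 3.14 in a-1G and 2.94 in a-R. In MCA-970 it was at 23.04 in W-1D and 14.8 in W-R against 0.508 to 1.77 in the other 4 tumors. It ranged from 0.402 to 2.54 in MCA-969, where a-R and a-1D were the highest, from 0.720 to 9.18 in MCA-948 and from 1.75 to 8.42 in MCA-972. The amount of hematopoietic RNA left in a library therefore varied widely between tumors of the same origin. In bulk RNA, a larger number of cells of a type and more RNA per cell cannot be told apart. The numeric library IDs in the labels fell into 3 separate ranges, which are not explained there and are used here as 3 ID groups. These held 6 MCA-969 and 4 MCA-972 tumors, 2 MCA-948, 6 MCA-970 and 2 MCA-969 tumors, and 4 MCA-943 and 6 MCA-948 tumors.

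The myeloid transcripts were scarce and unequal. Summed over the 37 genes, they made up between 68.0 and 843 CPM of a library. A few genes held much of the lowest sum, that of MCA-969 W-2G. Apoe had 577 counts there, Arg1 431, Cd14 342 and Cd68 291, against 84 for Lyz2 and 32 for C1qa. How much of the sum came from myeloid cells was not tested. Lyz2, the lysozyme of macrophages and granulocytes, was the highest per length of transcript, with a mean over the 30 tumors of 23.4 CPM per kb. It was followed by the lipid carrier gene Apoe at 15.98 CPM per kb, Arg1 at 7.92, the cysteine protease gene Ctss at 7.39, the lysosomal glycoprotein gene Cd68 at 7.28 and the complement gene C1qa at 6.88. Next came Cd14, the co-receptor for lipopolysaccharide, at 6.85 CPM per kb, C1qb at 6.22 and Cd74, the invariant chain of MHC class II, at 6.08. The genes that did not pass the filter encode scavenger receptors: Cd163 had 156 counts over all 30 tumors and 0 counts in 5 of them, and Marco had 4 counts over all tumors and 0 counts in 27 of them. Ciita, the transactivator of MHC class II genes, was the lowest of the genes that passed, at 0.0354 CPM per kb.

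The tumors of one line differed in these transcripts far more than in the median gene. The biological coefficient of variation, the variation between tumors of one line beyond counting error, had a median of 0.808 over the 35 genes tested. It had a median of 0.176 over all 16862 genes and of 0.217 over the 10406 other genes within the same range of mean level, and all 35 genes lay above both values. Csf3r, the receptor of the granulocyte growth factor, had the highest value at 1.09, followed by the chemokine receptor genes Ccr2 and Cx3cr1. The lowest values were those of Cd14 at 0.320, Cd68 at 0.372 and Arg1 at 0.376. Wide spread was also seen in lists of other cells. In MCA-970, 9 NK cell genes summed to between 0.299 and 29.5 CPM, and the 37 genes to between 102 and 843. In MCA-948, 9 erythroid and platelet genes summed to between 65.7 and 2881 CPM, and the 37 genes to between 86.7 and 329. A list of 6 B cell genes spread less in MCA-970, between 0.688 and 1.39 CPM, than in MCA-972, between 0.710 and 6.44 CPM.

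**Figure D1:**
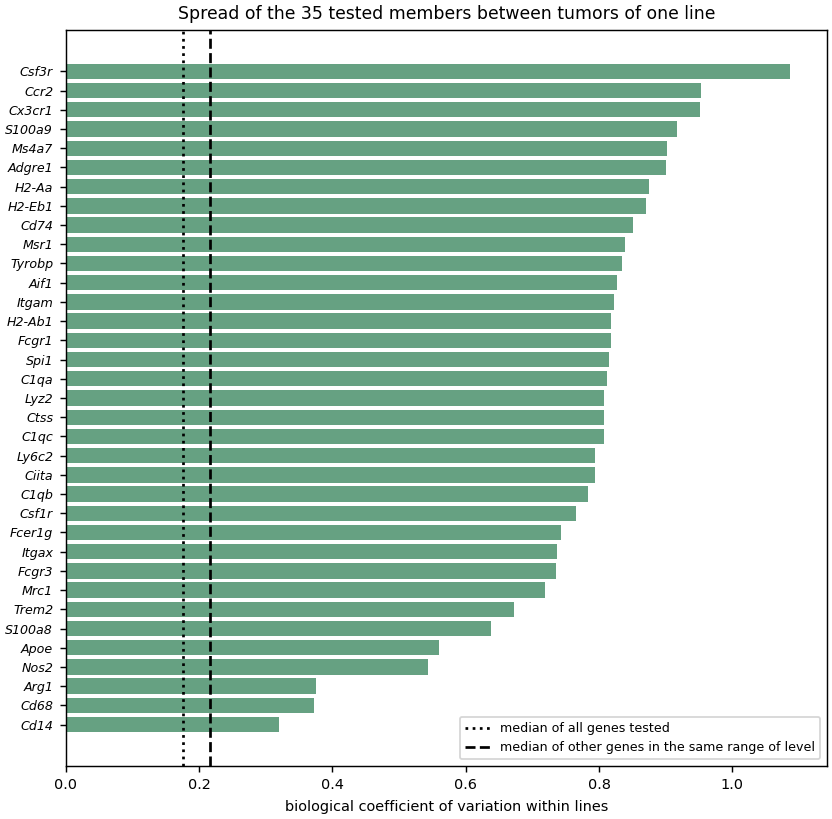
The bars give the biological coefficient of variation within lines for each of the 35 genes tested, with the median of all genes as a dotted line and that of other genes in the same range of level as a dashed line. All bars pass both lines, from 0.320 for Cd14 to 1.09 for Csf3r.

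Most of the genes varied together. After subtraction of the mean of the line, the median Pearson correlation of log2 CPM over the 595 pairs of genes was 0.767 across the 30 tumors, which share their library and its depth between genes. The closest pair was C1qa and C1qc, 2 of the 3 chains of C1q, with a correlation of 0.991. The genes that varied least with the rest were Nos2, the inducible nitric oxide synthase, with a median correlation of -0.378 with the others, and S100a8, a calcium-binding protein abundant in neutrophils and monocytes, with a median of -0.01. The tumor MCA-970 W-1D had the highest level of all 30 tumors for 23 of the 37 genes, and the highest of its line for 33 of the 35 genes tested. In MCA-943, a-1D was the highest tumor for 27 genes. In MCA-969, a-1D was the highest for 19 and a-R for 9, and in MCA-972, a-1G was the highest for 21 and 2G for 11. In MCA-948 the highest values were divided between W-1D, with 16 genes, and a-1G, with 12, and a-R was the lowest for 24.

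**Figure D2:**
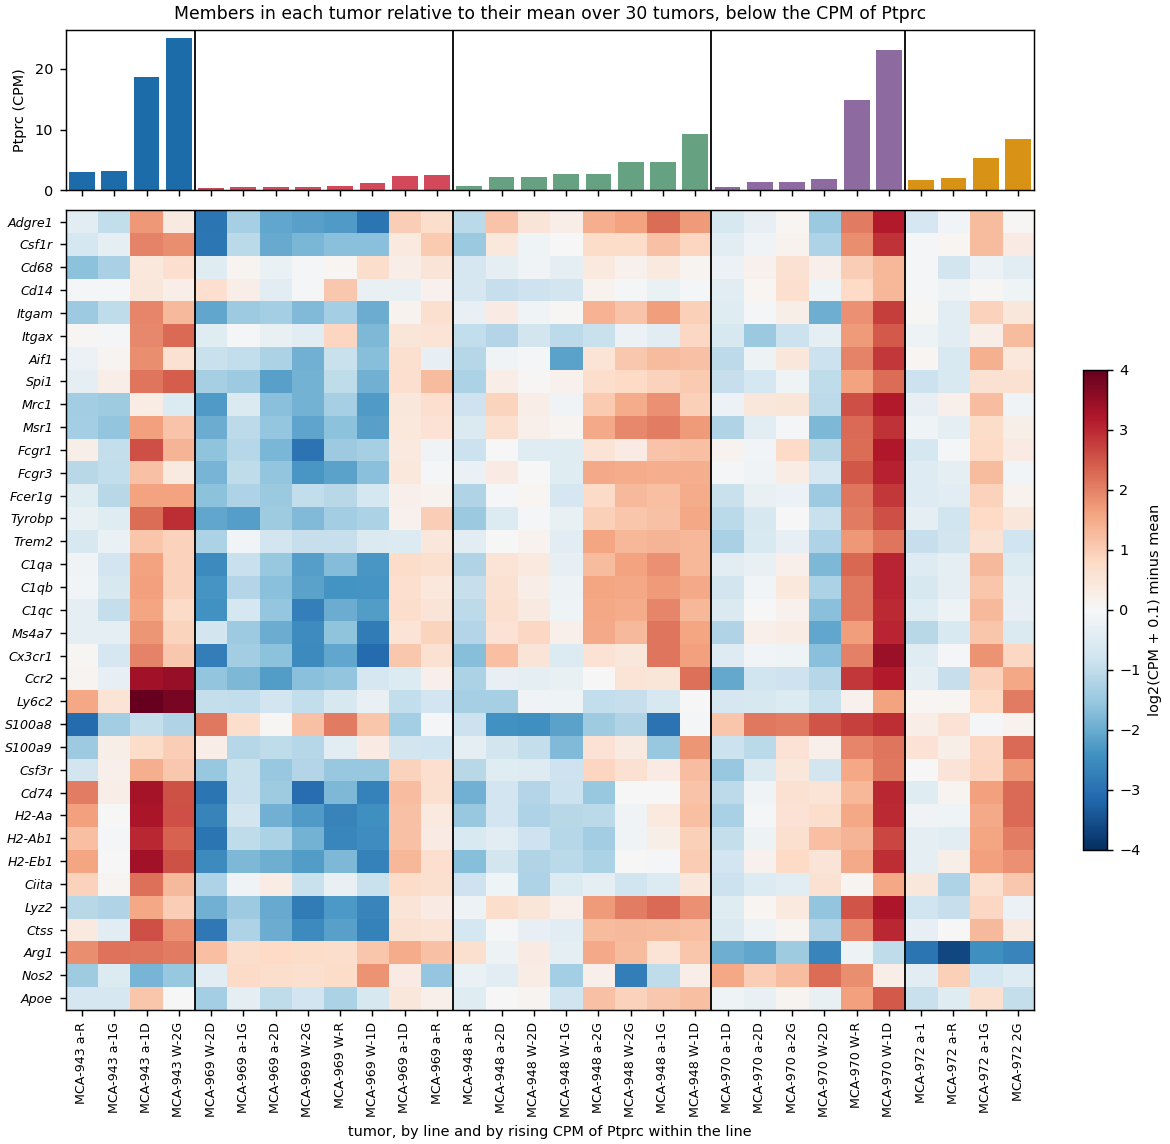
Each row is 1 of the 35 genes tested and each column 1 of the 30 tumors, grouped by line and ordered by Ptprc within the line, and the color gives log2(CPM + 0.1) minus the mean of the gene, with Ptprc in CPM as bars above. Whole columns are high or low together, as in MCA-970 W-1D, the highest of its line for 33 genes, while Arg1 is high in all 4 MCA-943 tumors.

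The relation to Ptprc was examined within lines of 6 or more tumors. In MCA-948, Ptprc was at 0.720 CPM in a-R, 9.18 in W-1D and 2.15 to 4.66 in the other tumors. The median correlation of the 35 genes with Ptprc on the log2 CPM scale was 0.792 there, and 0.712 without a-R and W-1D. Over all 8 tumors, r was above 0 for 34 of the 35 genes, against 46.3% of all genes. It was 0.8 or more for 16, against 1.31% of all genes. Ccr2 had the highest Pearson r of the 35 genes, at 0.955 (exact permutation p = 0.000694), a Spearman rho of 0.952 (exact permutation p = 0.00114), below the rho of Tyrobp at 0.976, and an r of 0.967 without the 2 tumors farthest from the median of Ptprc. The C1q gene C1qa had an r of 0.827 and a rho of 0.833, with exact permutation p of 0.0102 and 0.0154, and an r of 0.749 without those 2 tumors. Nos2 had an r of -0.173. Of the 35 genes, 26 had an r above 0 with an unadjusted exact permutation p under 0.05, against 3.42% of all genes. None had an adjusted p under 0.05 after Benjamini-Hochberg adjustment over the 50583 relations of all genes in the 3 lines, the lowest adjusted p for Pearson's r being 0.650, which Ccr2, Spi1, Tyrobp, Fcer1g and H2-Aa shared, and those for Spearman's rho being 1. The smallest p that 8 tumors allow is 4.96e-05. In MCA-969 and MCA-970, the median r was -0.243 and 0.0697 without the pair of tumors highest in Ptprc. No relation over all tumors of these lines is therefore given.

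**Figure D3:**
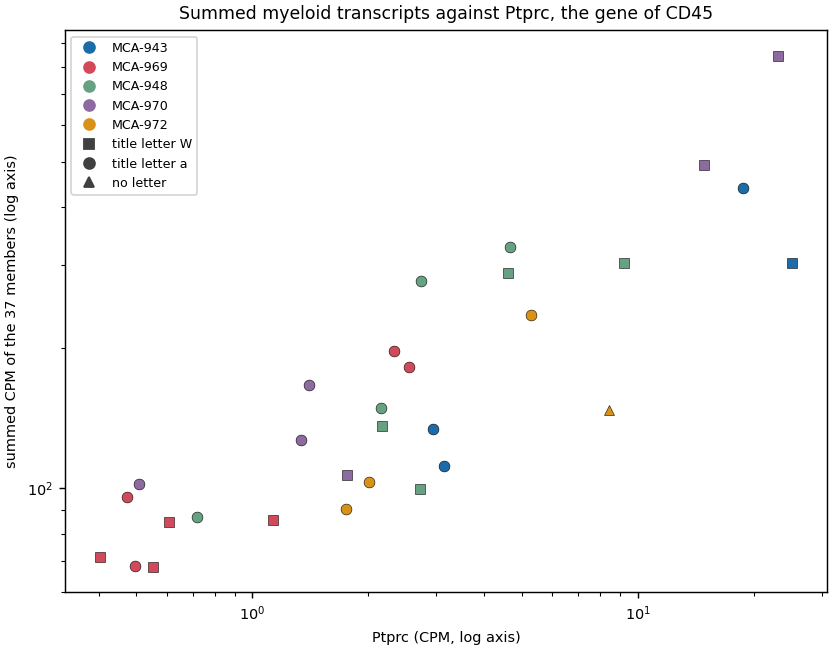
The summed CPM of the 37 genes is plotted against Ptprc in CPM for the 30 tumors, both on log axes, with the color giving the line and the shape the title letter. MCA-970 W-1D lies at the upper right, at 843 and 23.04 CPM, MCA-970 W-R at 492 and 14.8 CPM, and most MCA-969 tumors at the lower left.

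Between lines, the summed level of the 37 genes had a median of 219 CPM in MCA-943 (from 111 to 439), 214 in MCA-948 (86.7 to 329), 147 in MCA-970 (102 to 843), 125 in MCA-972 (90.1 to 235) and 85.0 in MCA-969 (68.0 to 197). All these ranges overlapped. MCA-969 had the lowest mean level of the 5 lines for 28 of the 35 genes tested, and MCA-970 had the highest for 20 and MCA-943 for 12. Of the 140 pairs of neighbouring lines in the order of the line means, 6 were called different, a share not computed over all genes. These were Ly6c2 between MCA-943 and MCA-972, S100a8 between MCA-970 and MCA-969 and between MCA-972 and MCA-948, and Arg1 between MCA-943 and MCA-969, between MCA-948 and MCA-970 and between MCA-970 and MCA-972. Calls required a fold change of at least 2 in either direction and a Benjamini-Hochberg adjusted p under 0.05 in edgeR's quasi-likelihood test. In an F test over the 5 lines, 28 of the 35 genes had an adjusted p under 0.05, against 94.1% of all genes. This count was 18 with the ID group as covariate and 17 without the MCA-969 tumors labelled sensitive.

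Each non-sensitive line was compared with each sensitive line to see whether the myeloid transcripts left in the tumors differ with sensitivity to NK1.1+ cells. For MCA-943 the calls went in both directions, and for MCA-969 most were lower. Against MCA-948, 9 genes were higher in MCA-943 (17.7% of all genes) and 0 lower (11.3%), with a median log2 fold change of 0.29 over the 35 genes. The 9 were the 5 MHC class II genes, the monocyte genes Ccr2 and Ly6c2, the integrin gene Itgax and Arg1. In all, 10 of the 35 had an unadjusted p under 0.05 in edgeR, as in DESeq2, and DESeq2 called 10. Against MCA-970, MCA-943 had 2 genes higher (12.6% of all genes), Ly6c2 and Arg1, and 3 lower (14.8%), S100a8, Nos2 and the mannose receptor gene Mrc1, with a median of -0.35. Against MCA-972 it had 2 higher (12.2%), again Ly6c2 and Arg1, and 1 lower (13.4%), S100a8, with a median of 0.65. Without W-2G and a-1D, the MCA-943 tumors highest in Ptprc, the comparison with MCA-948 gave 2 genes higher, Ly6c2 and Arg1, and 2 lower, and that with MCA-970 gave 1 higher and 7 lower. Within the ID group that holds MCA-943 and MCA-948, 6 genes were higher and 1 lower, whereas no ID group held MCA-943 together with MCA-970 or MCA-972.

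Called lower in MCA-969 were genes of lysozyme, scavenger, Fc and C1q proteins, among others. Against MCA-948, 16 genes were lower, against 3.91% of all genes, and 2 were higher (16.8% of all genes), S100a8 and Nos2, and the median log2 fold change was -1.35. The lower genes included the lysozyme gene Lyz2 (-2.37 ± 0.64, SE), the scavenger receptor gene Msr1 (-2.08 ± 0.66), Adgre1, which encodes the macrophage marker F4/80 (-2.04 ± 0.70), and the low-affinity Fc receptor gene Fcgr3 (-1.94 ± 0.58). Against MCA-970, 27 genes were lower (10.7% of all genes) and 1, Arg1, was higher (10.7%), with a median of -2.02. Against MCA-972, 5 were lower (10.3%), namely Ly6c2, the neutrophil gene S100a9 and the MHC class II genes Cd74, H2-Aa and H2-Ab1, and Arg1 was higher (10.3%), with a median of -1.03. Ptprc itself differed by -1.75 ± 0.69, -2.73 ± 0.73 and -2.02 ± 0.79 in these comparisons (adjusted p = 0.0300, 0.00210 and 0.0326).

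The number of calls depended on few tumors, chosen here after their levels were seen. The share of all genes called was not computed for fits without some tumors, with the ID group as covariate or within an ID group. Without MCA-970 W-1D, 9 genes differed between MCA-969 and MCA-970, and without both W-1D and W-R the only call was Arg1, higher in MCA-969. Without W-1D and W-R, MCA-943 had 13 genes higher than MCA-970 and 2 lower, in place of 2 and 3. Without a-1D and a-R, the MCA-969 tumors highest in Ptprc, 26 genes were lower than in MCA-948 and 25 lower than in MCA-972. Leaving out the highest tumors of a line lowers its levels, so the direction of these changes was set by the choice. The comparison of MCA-969 with MCA-948 gave 11 calls without MCA-948 a-1G, and that with MCA-972 gave 13 without MCA-969 a-1D, 12 without a-R, 2 without MCA-972 2G and 3 without each of MCA-969 W-1D, W-2D, W-2G, W-R and a-2D and MCA-972 a-1G. With the ID group as covariate, the comparison of MCA-969 with MCA-948 gave 1 call in place of 18, with the direction of all 18 kept, and without W-1D and W-2D, the MCA-969 tumors labelled sensitive, it gave 6. That with MCA-972 gave 3 in place of 6 in both settings, and MCA-943 gave 1 in place of 3 against MCA-972 with the ID group as covariate. Within an ID group, MCA-969 differed from MCA-948 in 1 gene (2 tumors of each), from MCA-970 in 9 genes (2 and 6 tumors) and from MCA-972 in 3 genes (6 and 4 tumors). The 2 MCA-969 tumors that share an ID group with MCA-948 and MCA-970 are W-1D and W-2D, those labelled sensitive. Within MCA-969, the ID group and this label therefore cannot be told apart. MCA-943 and MCA-969 also differed from each other: 17 of the 35 genes were higher in MCA-943 (12.1% of all genes) and 2 lower (14.9%), with a median of 1.57. The sensitive lines were also compared with each other. Between MCA-948 and MCA-970, 1 gene was higher in the former (9.64% of all genes) and 7 in the latter (19.8%). Between MCA-948 and MCA-972 these counts were 1 (8.27%) and 2 (18.5%), and between MCA-970 and MCA-972 they were 3 (8.56%) and 0 (9.01%).

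**Figure D4:**
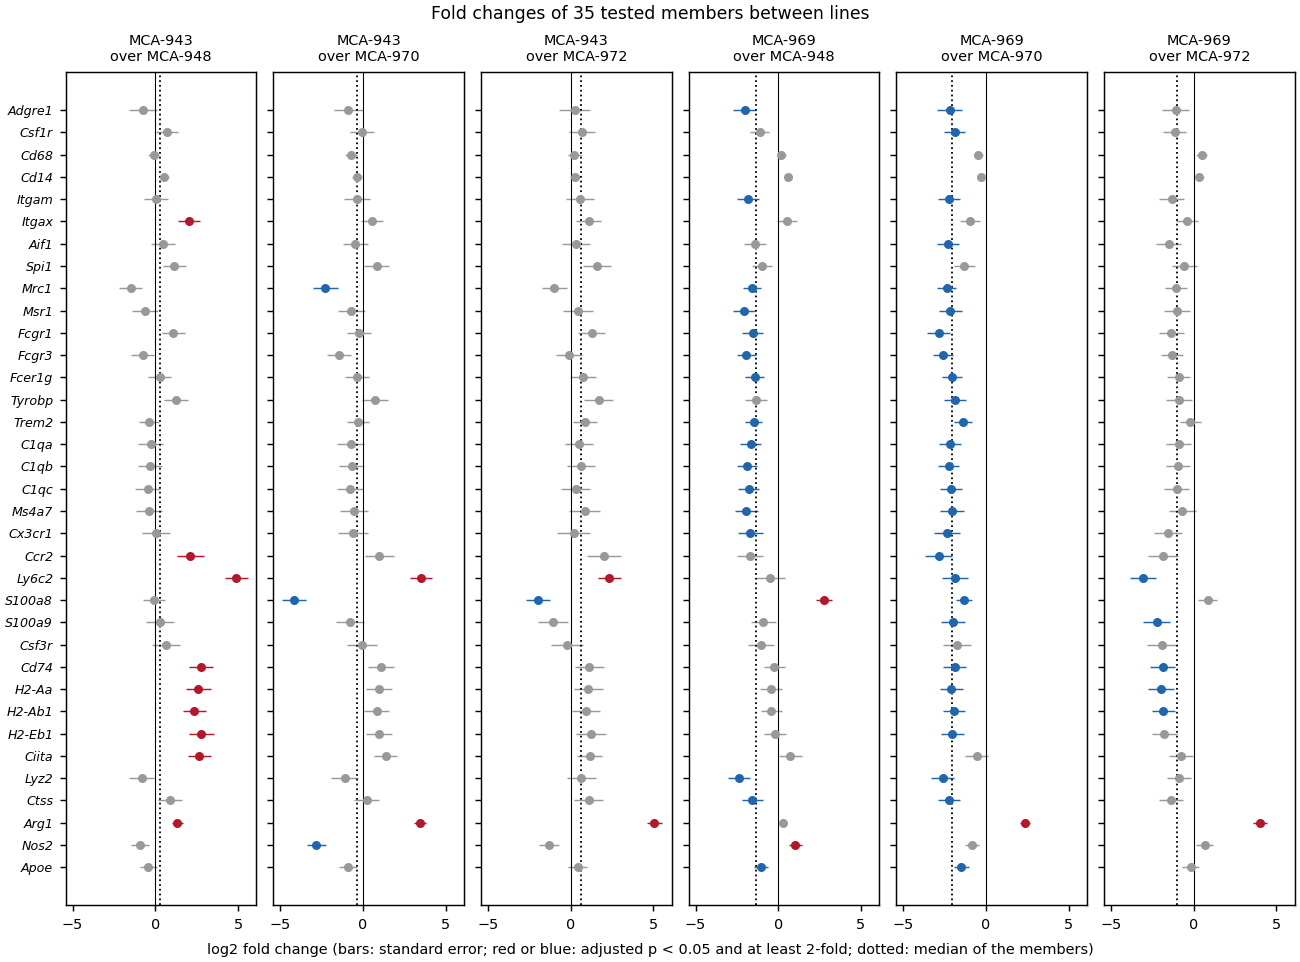
Log2 fold changes with their SE are shown for the 35 genes in the 6 comparisons across sensitivity, genes called higher in red and lower in blue, with the median of the 35 genes as a dotted line. The median runs from -2.02 for MCA-969 against MCA-970 to 0.65 for MCA-943 against MCA-972, and Arg1 is higher in the non-sensitive line wherever it is called.

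Among the genes found on most macrophages, Csf1r, the receptor for CSF1 and IL-34, showed the general pattern. In MCA-943 it was at 21.6 CPM in W-2G, 23.8 in a-1D, 4.61 in a-1G and 3.55 in a-R. In MCA-972 it was at 5.54 in a-1, 14.2 in a-1G, 7.38 in 2G and 6.26 in a-R. The lowest, median and highest values were 0.712, 1.77 and 12.2 CPM in MCA-969, 2.03, 8.97 and 13.5 in MCA-948 and 2.47, 5.94 and 44.0 in MCA-970. All lines overlapped, and Csf1r was called lower in MCA-969 than in MCA-970 (log2 fold change -1.90 ± 0.62, adjusted p = 0.0101). Its reads cannot be told apart from those of Hmgxb3 on the other strand where the genes overlap, since the strand setting of the counting is not stated. Cx3cr1, Ciita and H2-Eb1 also overlap annotated neighbours. Adgre1 and the integrin gene Itgam were called lower in MCA-969 than in both MCA-948 and MCA-970, and Aif1, an actin-binding protein of macrophages, than in MCA-970, at -2.29 ± 0.68. Spi1, the myeloid transcription factor PU.1, was called in none of the 6 comparisons, its log2 fold changes lying between -1.30 and 1.58, and was higher in MCA-943 than in MCA-969 (2.13 ± 0.71, adjusted p = 0.0107). Cd68 and Cd14 were called in none of the 10 pairs of lines, with absolute log2 fold changes of at most 0.95 and 0.88, although Cd68 had an adjusted p of 0.0295 between MCA-970 and MCA-972 and Cd14 of 0.00256 between MCA-948 and MCA-970. Itgax, which encodes the integrin CD11c of dendritic cells and macrophages, was higher in MCA-943 than in MCA-948 (2.03 ± 0.65, adjusted p = 0.00782).

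The scavenger receptor gene Mrc1, which encodes the mannose receptor CD206, was highest in MCA-970, at 63.4 CPM in W-1D and 41.9 in W-R, with 3.31 to 9.61 in the other 4 tumors. It was between 2.53 and 8.44 CPM in MCA-943, between 1.34 and 10.9 in MCA-969 and between 3.80 and 24.9 in MCA-948. Both non-sensitive lines were called lower than MCA-970, MCA-943 by 2.28 ± 0.76 and MCA-969 by 2.37 ± 0.59 on the log2 scale (adjusted p = 0.0107 and 0.00101). Msr1 was lower in MCA-969 than in MCA-948 and MCA-970 and was called in no comparison of MCA-943 with a sensitive line.

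The Fc receptor genes and their signaling adaptors moved with the macrophage genes. Fcgr1, the high-affinity receptor for IgG, was at 7.08 CPM in MCA-970 W-1D, 3.54 in W-R and 0.258 to 1.21 in the other MCA-970 tumors, and its median was 0.194 CPM in MCA-969, 1 tumor of which had 0 counts. All 5 genes of this group were lower in MCA-969 than in MCA-970, from -1.38 ± 0.55 for the lipid receptor gene Trem2 to -2.86 ± 0.67 for Fcgr1, and 4, all but the adaptor gene Tyrobp, were lower than in MCA-948. None of the 5 was called between MCA-943 and a sensitive line in edgeR's test, with the absolute log2 fold change reaching 1.69 ± 0.89 for Tyrobp against MCA-972 (adjusted p = 0.110).

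The 3 C1q chains assemble into 1 complex and lie side by side on chromosome 4 of GRCm38, C1qb at 136880129 to 136886187, C1qc at 136889804 to 136893065 and C1qa at 136895917 to 136898803. In MCA-943, C1qa was at 8.54 CPM in W-2G, 13.7 in a-1D, 2.61 in a-1G and 4.07 in a-R. The lowest, median and highest values were 0.681, 1.39 and 7.50 CPM in MCA-969, 1.87, 8.72 and 16.1 in MCA-948 and 1.21, 4.40 and 37.9 in MCA-970. In MCA-972, a-1G was at 11.03 CPM and the 3 others between 3.02 and 3.37. The ratio of C1qa to C1qb counts lay between 0.717 and 1.75 over the 30 tumors, with a median of 1.05, and that of C1qa to C1qc between 0.937 and 1.78, with a median of 1.16. All 3 were lower in MCA-969 than in MCA-948, by 1.67 to 1.87 on the log2 scale, and than in MCA-970, by 2.11 to 2.26, and none was called between MCA-943 and any other line.

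Of the monocyte genes, Ly6c2 was higher in MCA-943 than in each of the other lines, and Ccr2 than in MCA-948 and MCA-969. Ccr2 was at 11.5 CPM in MCA-943 W-2G, 10.4 in a-1D, 0.718 in a-1G and 1.00 in a-R. Its highest value was 1.08 CPM in MCA-969, 4.64 in MCA-948, 9.26 in MCA-970 and 2.95 in MCA-972, so that 2 tumors of MCA-943 lay above every other tumor of the series. It was higher in MCA-943 than in MCA-948 (2.12 ± 0.83, adjusted p = 0.0266), and without these 2 tumors the difference was -0.66 (adjusted p = 0.658). Ly6c2, which encodes a surface protein of inflammatory monocytes, was at 3.39 CPM in W-2G, 4.05 in a-1D, 0.265 in a-1G and 0.637 in a-R of MCA-943. It reached 0.103 CPM in MCA-969, 0.150 in MCA-948, where 2 tumors had 0 counts, 0.667 in MCA-970 and 0.964 in MCA-972. The MCA-943 tumors therefore did not overlap with MCA-969 or MCA-948. The log2 fold change of Ly6c2 was 4.90 ± 0.67 against MCA-948, 3.49 ± 0.68 against MCA-970 and 2.34 ± 0.71 against MCA-972 (adjusted p = 2.53e-07, 5.82e-05 and 0.00649). With the ID group as covariate, it was 4.60, 1.22 and -0.69 (adjusted p = 0.806 and 0.830 for the last 2), so that only the difference from MCA-948 was called and that from MCA-972 turned its direction. Its close relative Ly6c1, which is also expressed by endothelial and other cells, was at 41.1 to 89.0 CPM in the 4 MCA-943 tumors and at 24.2 or less in all others. Reads shared between these genes are uncertain, and the part of Ly6c1 in the values of Ly6c2 was not tested. Ms4a7 and the fractalkine receptor gene Cx3cr1 were called lower in MCA-969 than in MCA-948 and MCA-970 and in no pair with MCA-943.

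Of the granulocyte genes, S100a8 differed most between lines, called in 8 of the 10 pairs, against 2 for S100a9, with which it forms calprotectin. S100a8 was between 2.60 and 9.58 CPM in MCA-970, with a median of 6.17, and above every tumor of MCA-943, MCA-948 and MCA-972. In MCA-943 it was at 0.441 CPM in W-2G, 0.543 in a-1D, 0.378 in a-1G and 0.0490 in a-R, and in MCA-972 at 1.42 in a-1, 1.12 in a-1G, 1.28 in 2G and 1.75 in a-R. It ranged from 0.0602 to 1.10 in MCA-948 and from 0.393 to 5.26 in MCA-969. S100a8 was lower in MCA-943 than in MCA-970 by 4.17 ± 0.72 and than in MCA-972 by 1.99 ± 0.72, and higher in MCA-969 than in MCA-948 by 2.76 ± 0.50 (adjusted p = 1.27e-05, 0.0203 and 2.65e-05). S100a9 was at most 1.56 CPM in any tumor and was lower in MCA-969 than in MCA-970 and MCA-972. The ratio of S100a8 to S100a9 counts ran from 0.765 to 85.5 over the 29 tumors with S100a9 counts. The highest ratio, in MCA-970 a-2D, came from 171 counts of S100a8 and 2 of S100a9, so that counting error is large. After subtraction of the line means, S100a9 was the gene closest to S100a8, with a correlation of 0.661. Both genes lie on chromosome 3, S100a8 at 90668978 to 90670035 and S100a9 at 90692632 to 90695721. Csf3r was called in no pair of lines. Of 13 other neutrophil genes, 10 had a mean below 0.5 CPM in every line, among them Ly6g and the granule genes Elane and Camp, which were at 0.0903 CPM or less on average in every line.

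The MHC class II genes, which antigen-presenting cells use to display peptides to CD4+ T cells, moved as a group. In MCA-943, Cd74 was at 26.2 CPM in W-2G, 45.3 in a-1D, 5.25 in a-1G and 18.6 in a-R, and in MCA-972 at 3.14 in a-1, 13.96 in a-1G, 21.7 in 2G and 4.79 in a-R. The lowest, median and highest values were 0.441, 1.38 and 10.4 CPM in MCA-969, 1.08, 2.44 and 9.86 in MCA-948 and 2.09, 6.57 and 36.2 in MCA-970. MCA-943 lay above most tumors of MCA-969 and MCA-948, with a-1G overlapping both lines. All 5 genes, Cd74, H2-Aa, H2-Ab1, H2-Eb1 and Ciita, were higher in MCA-943 than in MCA-948, by 2.35 ± 0.70 for H2-Ab1 to 2.79 ± 0.75 for H2-Eb1, and higher than in MCA-969, by 1.93 ± 0.67 for Ciita to 3.05 ± 0.77 for H2-Aa. Without W-2G and a-1D, the difference from MCA-948 was between 1.00 and 1.76 for the 5 genes, with adjusted p between 0.114 and 0.369. None of the 5 was called between MCA-943 and MCA-970 or MCA-972. The genes of the ubiquitous factors that bind class II promoters, Rfx5, Rfxap and Rfxank, were at means of 12.8 to 29.99 CPM in every line, and none of the 3 was called between MCA-943 and MCA-948. Of 5 further genes of the pathway 3 were tested, and 1 of them, H2-DMb1, was higher in MCA-943 than in MCA-948 (2.11 ± 0.57, adjusted p = 0.00189).

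The chains encoded by H2-Aa and H2-Eb1 belong to different class II molecules, yet the genes correlated at 0.960 across the tumors after subtraction of the line means. Their promoters are shown because class II genes are known to share a conserved upstream element, the Y box, which binds the factor NF-Y. The 250 bases before the RefSeq start are given for both genes on chromosome 17 of GRCm38.p6, at chr17:34287824-34288073 on the minus strand for H2-Aa and chr17:34305617-34305866 on the plus strand for H2-Eb1, with the letters CTGATTGG in capitals.
H2-Aa: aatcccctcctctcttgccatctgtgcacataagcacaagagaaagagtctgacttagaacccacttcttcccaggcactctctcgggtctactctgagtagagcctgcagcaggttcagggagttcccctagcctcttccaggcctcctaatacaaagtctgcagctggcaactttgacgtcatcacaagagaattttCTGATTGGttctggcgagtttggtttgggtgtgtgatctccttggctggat
H2-Eb1: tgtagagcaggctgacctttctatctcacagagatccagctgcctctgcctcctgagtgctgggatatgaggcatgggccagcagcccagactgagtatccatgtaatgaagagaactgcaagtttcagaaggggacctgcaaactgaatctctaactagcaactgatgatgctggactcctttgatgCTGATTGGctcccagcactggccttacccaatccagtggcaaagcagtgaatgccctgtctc
The letters lie 51 to 44 bases before the start in H2-Aa and 62 to 55 bases before it in H2-Eb1. Searched on both strands, CTGATTGG was found in 3.829% of the 32851 windows of this length and in 2 of the 25 myeloid genes with an entry in the table, H2-Aa and H2-Eb1. H2-Ab1, Cd74 and Ciita had no entry and were not searched. Of 7 other class II pathway genes with an entry, only H2-Oa held these letters. GAGGAAGT, a sequence of the kind bound by PU.1 and other ETS factors, was found in 2.441% of the windows and in C1qc, Ly6c2 and S100a8.

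Arg1 was called in more pairs of lines than any other of the 35 genes, and Nos2 varied least with the rest. Arg1, whose product cleaves arginine, was at 30.3 CPM in W-2G, 31.7 in a-1D, 32.1 in a-1G and 25.98 in a-R of MCA-943, a mean of 30.02 ± 2.80 CPM (SD, n = 4) although Ptprc differed between these tumors from 2.94 to 25.1 CPM. In MCA-972 it was at 0.846 in a-1, 1.22 in a-1G, 1.04 in 2G and 0.473 in a-R. The lowest, median and highest values were 11.6, 13.9 and 19.9 CPM in MCA-969, 5.56, 10.8 and 20.5 in MCA-948 and 1.07, 2.16 and 6.20 in MCA-970. MCA-943 lay above every other tumor, and MCA-969 above all tumors of MCA-970 and MCA-972. Arg1 was called in 9 of the 10 pairs of lines and in 5 of the 6 that cross sensitivity. MCA-943 exceeded MCA-948 by 1.33 ± 0.31 on the log2 scale, MCA-970 by 3.43 ± 0.36 and MCA-972 by 5.05 ± 0.46, and MCA-969 exceeded MCA-970 by 2.37 ± 0.32 and MCA-972 by 3.99 ± 0.42 (adjusted p between 3.19e-10 and 0.000465). Between MCA-969 and MCA-948 it was 0.28 ± 0.26 (adjusted p = 0.377).

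Nos2, whose product makes nitric oxide from arginine, was between 4.67 and 18.4 CPM in MCA-970, with a median of 10.3, and was lowest there in W-1D, the tumor with the most myeloid transcripts. In MCA-943 it was at 1.29 CPM in W-2G, 0.987 in a-1D, 2.61 in a-1G and 1.37 in a-R, below every MCA-970 tumor. It was between 1.25 and 13.5 in MCA-969, between 0.473 and 4.73 in MCA-948 and between 2.30 and 7.49 in MCA-972. Nos2 was lower in MCA-943 than in MCA-970 (-2.81 ± 0.58, adjusted p = 0.000142) and higher in MCA-969 than in MCA-948 (1.03 ± 0.40, adjusted p = 0.0279). Lyz2 and Apoe, the genes with the highest levels, followed the macrophage genes instead. Lyz2 was at 158 CPM in MCA-970 W-1D, 96.5 in W-R and 5.56 to 22.1 in the other MCA-970 tumors, between 14.5 and 79.9 in MCA-948 and between 2.32 and 23.8 in MCA-969. Apoe was at 150.1 and 85.6 CPM in MCA-970 W-1D and W-R and at 21.9 to 29.4 in the other 4. Ctss was lower in MCA-969 than in MCA-948 and MCA-970, by 1.57 ± 0.63 and 2.23 ± 0.67 on the log2 scale.

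**Figure D5:**
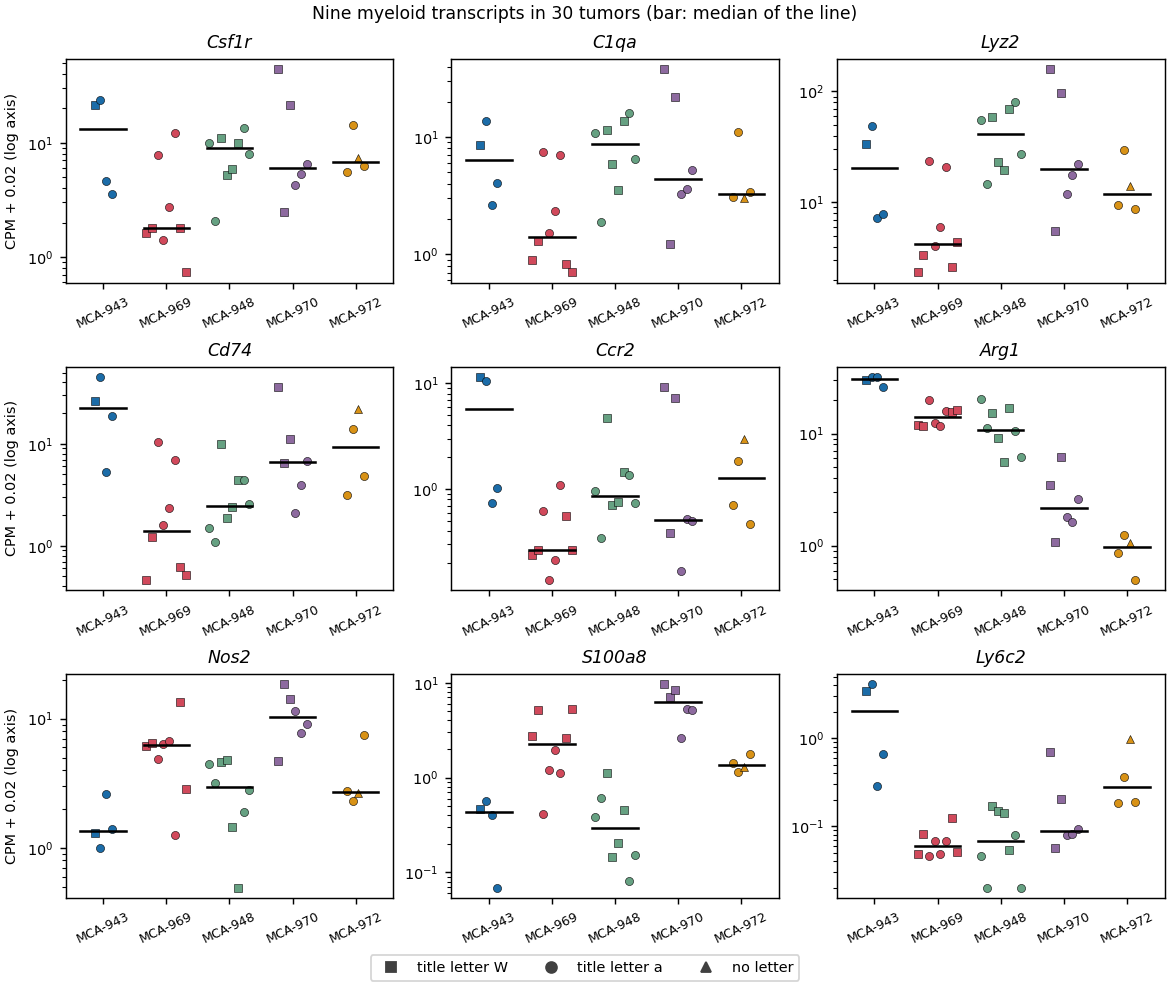
Levels of 9 genes in the 30 tumors by line, in CPM + 0.02 on a log axis, with a point for each tumor, shaped by title letter, and a bar at the median of the line. Csf1r, C1qa, Lyz2, Cd74 and Ccr2 spread widely within lines, whereas the 4 MCA-943 tumors lie between 25.98 and 32.1 CPM for Arg1 and the 6 MCA-970 tumors between 2.60 and 9.58 CPM for S100a8.

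With the log2 CPM of Ptprc as a covariate, a choice made after seeing the data, the calls changed in kind. MCA-969 then had 1 gene lower and 3 higher than MCA-948 (19.7% of all genes called in either direction), and 2 lower and 2 higher than MCA-970 (21.1%), where 16 and 27 had been lower. MCA-943 had 14 genes lower and 7 higher than MCA-948, against 28.9% of all genes, and 14 lower and 2 higher than MCA-970 (26.8%). The 14 lower than MCA-948 included Mrc1 (-2.50 ± 0.45), Msr1 (-2.29 ± 0.41), Lyz2 (-2.28 ± 0.44), Adgre1 (-2.07 ± 0.51) and the 3 C1q chains (-1.42 to -1.66), while the 5 MHC class II genes stayed higher, from 1.13 ± 0.48 for H2-Ab1 to 1.76 ± 0.59 for Ciita. In this fit MCA-943 therefore had less of the scavenger receptor and C1q transcripts and more of the class II transcripts than MCA-948. Ptprc is not particular to myeloid cells, and the summed NK and T cell genes also had their highest mean in MCA-943. The mean log2 ratio to Ptprc in MCA-943 and MCA-948 was -1.02 ± 1.02 and 1.92 ± 0.70 for Mrc1 (SD, n = 4 and 8). It was -0.650 ± 0.82 and -1.28 ± 0.82 for H2-Ab1, and -4.15 ± 1.09 and -4.66 ± 0.88 for Ciita. Ccr2 did not pass in any of the 6 comparisons, with log2 fold changes of 0.02 to 0.44, and Arg1 was called in 5 of them, as without the covariate.

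Ligands of the receptors were measured in the same tumors. Csf1, Il34, Ccl2, Ccl7 and Cx3cl1, the ligand of CX3CR1, had their highest mean in MCA-943, although Csf1 was called higher there than in MCA-948 and MCA-969 only. Ccl12, a further ligand gene, had its highest mean in MCA-970, at 2.08 CPM, and was at 0.566 in MCA-943. In MCA-943, Ccl2 was at 683 ± 171 CPM (SD, n = 4), Ccl7 at 209.8 ± 47.0, Il34 at 79.8 ± 8.33 and Cx3cl1 at 149 ± 25.4. Ccl2 was between 534 and 930 CPM in the 4 MCA-943 tumors and at most 328 in any other. Against MCA-948, the differences were 2.59 ± 0.29 for Ccl2, 3.67 ± 0.37 for Ccl7 and 5.01 ± 0.24 for Cx3cl1 on the log2 scale. Csf3, the ligand of the receptor encoded by Csf3r, was highest in MCA-969, at 26.9 ± 24.5 CPM (SD, n = 8) against 0.686 ± 0.728 in MCA-943 (SD, n = 4), while Csf3r had its lowest mean in MCA-969, at 0.111 CPM.

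Some other macrophage genes were also called lower in MCA-969 than in the sensitive lines. Of 22 tested genes of a further macrophage list, 19 were lower and 0 higher in MCA-969 than in MCA-970 (10.7% of all genes lower), 12 lower and 0 higher than in MCA-948 (3.91%), and 6 lower and 0 higher than in MCA-972 (10.3%). In MCA-943, 2 were higher and 3 lower than in MCA-948, where 17.7% and 11.3% of all genes were. The summed level of this list had a median of 73.7 CPM in MCA-969, 74.5 in MCA-943, 97.1 in MCA-948, 118.7 in MCA-970 and 95.1 in MCA-972. Its calls were not counted again without MCA-970 W-1D and W-R or with the ID group as covariate. Transcripts of other hematopoietic cells were also present: a list of 10 T cell genes summed to between 4.31 and 11.7 CPM in MCA-943 and to at most 6.33 in another line, and a list of 9 NK cell genes to between 5.75 and 44.3 CPM in MCA-943 and at most 29.5 elsewhere. Of 8 dendritic cell genes, 4 had a mean below 0.5 CPM in every line, among them Xcr1 and Clec9a, which were at or near 0. Of the 4 others, Zbtb46 and Siglech had their highest mean in MCA-943. Zbtb46 was at 12.9 CPM there against 1.41 to 5.59 in the other lines, and Siglech at 1.07. Flt3 had its highest mean in MCA-969, at 1.62 CPM, and Batf3 in MCA-970, at 1.48. Whether dendritic cells contributed to Itgax and the class II transcripts was not tested.

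Transcripts of NK cells moved with the title letters, and those of the 35 genes were not called. The letters W and a were compared with the line as factor in the 26 tumors of the lines that hold both. No gene of the 35 had an adjusted p under 0.05 in edgeR's quasi-likelihood test or in DESeq2, against 0.272% of all genes in edgeR. Of the 35, 5 had an unadjusted p under 0.05 in either tool, a share not computed over all genes. Of the 9 NK cell genes, 8 were higher in W in the same fit, with a median log2 difference of 3.81, among them Ncr1 (5.56 ± 0.61) and the granzyme gene Gzma (5.06 ± 0.55, adjusted p = 6.16e-06 for both). Among the 35 genes, the log2 differences of W over a with the lowest p were those of S100a8 (1.14 ± 0.34, adjusted p = 0.299), S100a9 (1.51 ± 0.51, adjusted p = 0.402) and Ly6c2 (1.44 ± 0.49, adjusted p = 0.431). Within lines, no gene of 33 tested had an adjusted p under 0.05 for the letter in edgeR's test, and the median difference was -0.02 in MCA-948. In MCA-970, 33 of 33 genes tested were higher in W, with a median of 2.22, and in MCA-969 4 of 33 were, with a median of -2.03. These shares were not computed over all genes, and the genes varied together. The medians over all genes were 0.0015 in MCA-970 and 0.033 in MCA-969. The median of the difference between these lines was 4.16 over the 33 genes and -0.033 over all genes. An unadjusted p under 0.05 was reached by 27 of the 33, a share not computed over all genes. None of the 33 had an adjusted p under 0.05 for this difference, the value of H2-Ab1 being 4.98 ± 0.96 (adjusted p = 0.133). The tumors highest in Ptprc are W-1D and W-R in MCA-970 and a-1D and a-R in MCA-969. The other W tumor of MCA-970, W-2D, was the lowest of its line for 18 genes, so that the difference there rested on W-1D and W-R.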

How the data were processed

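RNA was sequenced from 30 tumors after CD45 bead depletion. The authors aligned reads with STAR 2.5.3a to GRCm38 and counted them with featureCounts (version 1.5.2 per the labels). The deposited values are raw counts per gene, and their column names state removal of duplicates by molecular identifiers. Levels per kb use the gene lengths that featureCounts wrote into the deposited table. Strand and other counting options are not given in the sources used here. GENCODE M21 names 48058 of the genes. The 37 genes and all lists were chosen with earlier results of these data known.

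Counts of all 30 tumors were fitted with line as factor (edgeR 4.0.16, TMM, filterByExpr, robust quasi-likelihood test, R 4.3.3), and p-values were adjusted by the Benjamini-Hochberg method over all genes. The rule for named genes takes the 37, Ptprc, the ligands of their receptors, Ly6c1, Lyz1 and at most 2 genes of each further list, those with the highest mean. Ly6g, Elane, Camp, Xcr1, Clec9a, Siglech, Batf3, Ncr1, Gzma, H2-DMb1, H2-Oa and the Rfx genes fall outside it and were chosen after their values were seen. Nothing beyond the animal codes states that tumors came from separate animals, so p-values measure the spread between these tumors, which may be technical. Correlations were tested by two-sided exact permutation and adjusted over all genes and lines. Results were also computed with DESeq2 1.42.0 or its size factors, without the filter or the fold threshold, with a minimum mean of 1 CPM, with the ID group, index set or animal code, within ID groups and without each tumor. ID groups were inferred from the ranges of the library IDs, and index sets from low or high index numbers, and the labels call neither a batch. The Ptprc covariate, pairs of tumors left out and the letters within lines were added after seeing the data. Fits were tested on simulated counts. Promoters are from RefSeq.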

Additional observations from a re-analysis of the deposited data

Results flagged for a closer look

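Among 180 groups of 4 to 8 tumors, defined by gene and line, 6 held a tumor far from the others of its line by Dixon's test, where chance gives about 1 in 20. In MCA-972, a-1G stood above the 3 others for 4 genes of tissue macrophages. C1qa was at 11.03 CPM against 3.02 to 3.37, C1qb at 9.24 against 2.68 to 3.28, C1qc at 9.78 against 2.78 to 3.37 and Trem2 at 1.05 against 0.300 to 0.362. In the same tumor Ptprc was at 5.28 CPM, below 2G at 8.42. In MCA-972, Nos2 was at 7.49 CPM in a-R against 2.30 to 2.76 in the others. In MCA-948, Spi1 was at 0.262 CPM in a-R, the tumor lowest in Ptprc at 0.720, against 0.810 to 1.70 in the others.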

How the results depend on the processing

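Over all alternatives, 2682 values of single genes kept their direction and call, 322 kept the direction only and 8 changed direction. Ly6c2 between MCA-943 and MCA-972 was -0.69 with the ID group as covariate. Between MCA-969 and MCA-970, Tyrobp, Trem2, Ccr2 and Ly6c2 were 0.063, 0.38, 0.33 and 0.22 with the Ptprc covariate, and Trem2 and Ccr2 were 0.39 and 0.12 without MCA-970 W-1D and W-R. Ccr2 between MCA-943 and MCA-948 was -0.66 without MCA-943 W-2G and a-1D. The causes were not tested, and depth limits Ly6c2, Csf3r, S100a9 and Ciita most.

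Genes called for MCA-969 against MCA-948, 18 here, were 11 without the filter on low counts, 1 with the ID group as covariate or within ID group 2, 4 with the Ptprc covariate, 6 without both MCA-969 tumors labelled sensitive and 28 without MCA-969 a-1D and a-R. For MCA-969 against MCA-970, 28 here, they were 9 within ID group 2, 4 with the Ptprc covariate and 1 without MCA-970 W-1D and W-R. For MCA-969 against MCA-972, 6 here, they were 3 without the filter, with the ID group or index set as covariate, within ID group 1 or without the tumors labelled sensitive, 11 without MCA-970 W-1D and W-R and 26 without MCA-969 a-1D and a-R. MCA-943 gave 21, 16 and 8 against MCA-948, MCA-970 and MCA-972 with the Ptprc covariate, in place of 9, 5 and 3, 1 against MCA-972 with the ID group, 15 against MCA-970 without MCA-970 W-1D and W-R, and 4 and 8 against MCA-948 and MCA-970 without MCA-943 W-2G and a-1D. The F test over lines, 28 here, gave 18 without the filter or with the ID group and 17 without the tumors labelled sensitive. The only MCA-969 tumors in ID group 2 are those labelled sensitive. Among these alternatives, the share of all genes called was computed with the Ptprc covariate only. Without the 2 tumors farthest in Ptprc the median r was -0.243 in MCA-969 and 0.0697 in MCA-970.

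With single tumors left out, calls ranged from 7 to 10, 5 to 7 and 2 to 4 for MCA-943 against MCA-948, MCA-970 and MCA-972, from 11 to 22, 9 to 29 and 2 to 13 for MCA-969, from 19 to 32 in the F test, and from 0 to 1 for the letters, the 1 without MCA-943 a-1D. The animal codes did not pair the tumors: deviations of tumors with the same code correlated at a median of 0.0120 over 62 pairs of different lines. With the code as a replicate block, calls were 9, 5, 2, 20, 27 and 9, and 25 in the F test.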
